A study of Mus musculus with 8 samples.

Results

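The chromatin around Gata4 and Gata6, a pair of genes for pancreatic GATA transcription factors, was described by its acetylation of histone H3 at lysine 27 (H3K27ac). Peaks were taken where they overlapped, by at least 1 bp, a 150 kb window of mouse build mm9 set for each gene. The Gata4 window ran from 63800000 to 63950000 on chromosome 14, and the Gata6 window from 11000000 to 11150000 on chromosome 18. Of 195577 peaks in 8 lists, 112 lay in the Gata4 window and 16 in the Gata6 window. When peaks that shared sequence were joined across the lists, they formed 19 Gata4 regions and 2 Gata6 regions, or 21 of 33920 regions in all. The regions are numbered along the chromosome within each window. Of the 21 regions, 8 had a peak in all 8 libraries, 9 in between 2 and 7 libraries, and 4 in 1 library alone.

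The libraries came from 266-6, a mouse cell line derived from pancreatic acinar cells, the cells that make digestive enzymes. Cells were given siRNA at 25 nM for 48 h, either non-targeting or directed against Arid1a, then starved of serum overnight and treated for 8 h with EGF at 40 ng/ml or with 0.1% BSA as vehicle. The 4 groups are siRNA against Arid1a with EGF (knockdown with EGF), siRNA against Arid1a with vehicle (knockdown), non-targeting siRNA with EGF (EGF), and non-targeting siRNA with vehicle (control). Each group had 2 libraries, and the 4 libraries with non-targeting siRNA are called intact. The model is a single line, the siRNA names refer to ARID1A without a statement on their match to the mouse gene, and the Arid1a level was not analysed here. The labels do not state that duplicates were separate cultures, so a p-value here reflects spread among these samples alone, and that spread may be technical.

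GATA4 and GATA6 are zinc-finger proteins that bind GATA motifs. In mice their roles in pancreas formation overlap, and GATA6 helps to keep acinar cells differentiated in the adult. H3K27ac marks active promoters and enhancers, and genes that define a cell's identity often lie in wide acetylated domains. ARID1A belongs to the SWI/SNF complex, which moves nucleosomes, and contributes DNA binding to it, and EGF is a ligand of the EGF receptor.

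A peak list gives the stretches called as enriched, the width of each, and a fold over the caller's background, which is the authors' value for that peak. The lists held between 22030 and 28281 peaks and covered between 33.9 and 48.7 Mb. They were longest in both knockdown libraries and in control replicate 2, and control replicate 1 held 22167 peaks. Read depth is unknown, so no counting interval is given, and a region without a peak is not shown to lack acetylation. Fewer acetylated cells and less acetylation per cell cannot be told apart. Gene positions of build mm9 were not used here, so no region is placed in an exon, an intron or at a start site, and acinar markers were not analysed here. In RefSeq's annotation of another build, GRCm38.p6, Gata4 lies between Neil2 and Gm4151, while Gata6 lies next to Gm35918 and overlaps Gata6os on its other side. A region in a window therefore need not belong to the GATA gene.

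Gata4 lay in a crowded landscape, while the Gata6 window held little beyond a single wide domain. In the Gata4 window peaks covered 35.9 and 36.3 kb in knockdown libraries with EGF, 45.2 and 49.2 kb in knockdown libraries, 29.4 and 28.7 kb in EGF libraries, and 30.6 and 38.7 kb in control libraries. These lengths are 19.1% to 32.8% of the window. Between 10 and 18 peaks overlapped it in each library. When the genome was divided into tiles of 150 kb that each held a peak in some library, 9106 in all, between 99.5% and 99.7% of tiles had less covered sequence than the Gata4 window in the same library.

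In the Gata6 window peaks covered 12.4 and 13.0 kb in knockdown libraries with EGF, 13.8 and 14.4 kb in knockdown libraries, 13.0 and 12.6 kb in EGF libraries, and 11.8 and 13.5 kb in control libraries. Each library had between 1 and 3 peaks there. Between 91.1% and 95.0% of tiles had less covered sequence, although nearly all of it came from 1 region.

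**Figure D1:**
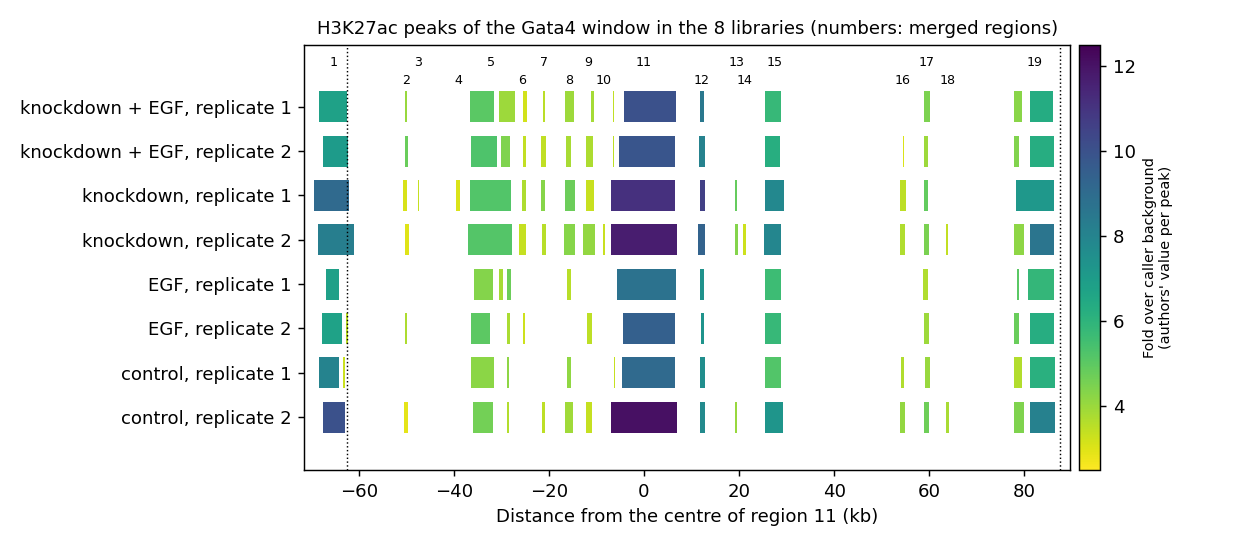
Peaks of the Gata4 window in each of the 8 libraries, placed by distance in kb from the centre of region 11 and coloured by the authors' fold, with the numbers of the 19 merged regions on top and dotted lines at the window's edges. Region 11 was the widest and darkest stretch in every library, and the narrow pale peaks of regions 6 to 9 stood mostly in the 4 upper tracks, the libraries with siRNA against Arid1a.

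The centre of the Gata4 landscape was region 11, at 63855450 to 63869467 on chromosome 14. It was the widest region of the window and had the highest fold. It was 1 unbroken peak in 5 libraries and 2 peaks in the other 3, and it covered 11130 and 12063 bp in knockdown libraries with EGF, 13412 and 13957 bp in knockdown libraries, 12314 and 10891 bp in EGF libraries, and 11578 and 13870 bp in control libraries. The widest values belonged to both knockdown libraries and control replicate 2, the libraries with the most peaks. Within its own list, the widest peak of region 11 ranked between 30 and 83 by width. A stretch of 10740 bp, 76.6% of the region, was covered in all 8 libraries. Its right end moved by 498 bp between libraries and its left end by 2689 bp.

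The fold of region 11 was 10.0 and 9.86 in knockdown libraries with EGF, 11.1 and 11.7 in knockdown libraries, 8.72 and 9.47 in EGF libraries, and 9.08 and 12.1 in control libraries. In every list this fold lay above those of 96.5% to 98.9% of peaks. Region 12, at 63873860 to 63875340, was short but strongly enriched, with folds of 8.51 and 8.09 in knockdown libraries with EGF, 10.6 and 9.35 in knockdown libraries, 7.44 and 7.34 in EGF libraries, and 7.58 and 7.77 in control libraries.

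The other Gata4 regions were wide but weaker, or narrow. Wide regions stood at the window's edges. Region 1, at 63793075 to 63801440, crosses the left edge and lies mostly outside the window. Region 19, at 63940275 to 63948991, lies just inside the right edge. Region 5, at 63825372 to 63835317, and region 15, at 63887738 to 63891953, were the other regions of several kb. In contrast, 7 of the 19 Gata4 regions never held a peak above 1000 bp. The 4 regions seen in 1 library were region 3 with 246 bp and region 4 with 764 bp in knockdown replicate 1, and region 10 with 425 bp and region 14 with 700 bp in knockdown replicate 2. All 4 thus came from the knockdown libraries, whose lists were among the longest. Control replicate 2, with the longest list of 28281 peaks, had none of them. The share of single-library regions that came from knockdown libraries genome-wide was not computed.

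**Figure D2:**
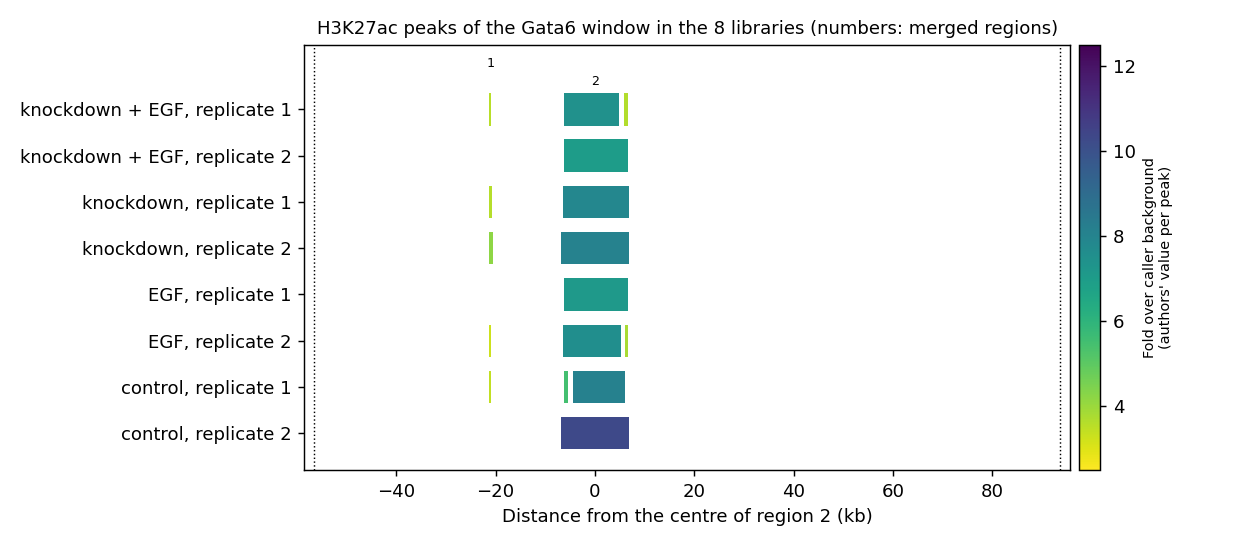
Peaks of the Gata6 window in each of the 8 libraries, placed by distance in kb from the centre of region 2 and coloured by the authors' fold, with dotted lines at the window's edges. Region 2 spanned nearly the same stretch in every library, and the only other region was a narrow peak in 5 of the 8 libraries.

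The Gata6 domain, region 2 at 11049645 to 11063239 on chromosome 18, was nearly as wide as the central Gata4 region. Its covered length was 12068 and 12967 bp in knockdown libraries with EGF, 13164 and 13595 bp in knockdown libraries, 13002 and 12176 bp in EGF libraries, and 11432 and 13497 bp in control libraries. It was a single peak in 5 libraries and was split into 2 peaks in 1 library each of the knockdown with EGF, EGF and control groups. Its widest peak ranked between 26 and 93 by width in its list, 10297 bp (75.7% of it) was covered in all 8 libraries, and its ends moved by 534 and 786 bp.

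Its fold was 7.47 and 7.03 in knockdown libraries with EGF, 7.85 and 8.06 in knockdown libraries, 7.12 and 7.61 in EGF libraries, and 8.14 and 10.3 in control libraries. The Gata6 domain was thus close to the Gata4 one in width but not in fold, which was lower than that of Gata4 region 11 in each of the 8 libraries. Gata6 region 1, at 11035054 to 11035956, was a narrow peak of 369 bp in knockdown replicate 1 with EGF, 598 and 821 bp in knockdown libraries, 393 bp in EGF replicate 2 and 383 bp in control replicate 1, and had no peak in the other 3 libraries.

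The first comparison asked how Arid1a knockdown changed the acetylated sequence at these genes. One Gata4 region, region 5, widened with knockdown, while the central Gata4 region and the Gata6 domain did not pass the test. Region 5 covered 8470 and 7542 bp in knockdown libraries with EGF and 8601 and 9254 bp in knockdown libraries, against 5475 and 4628 bp in EGF libraries and 5152 and 4705 bp in control libraries. All 4 knockdown libraries lay above all 4 intact ones. The region was 1 unbroken peak in both knockdown libraries without EGF and was split into 2 or 3 peaks in the other 6 libraries.

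Covered length was tested in limma on log2(covered bp + 200) over the 28146 regions that were found in 2 or more libraries, with Benjamini-Hochberg adjustment over all of them and a threshold of 0.05. Region 5 was higher by 0.74 ± 0.08 (log2, SE) with knockdown over both EGF states, adjusted p = 0.0433. It was higher by 0.83 ± 0.11 without EGF, adjusted p = 0.0395, and by 0.65 ± 0.11 with EGF, adjusted p = 0.0842. It was 1 of 17 tested regions of both windows that rose with knockdown over both EGF states, where 0.213% of all tested regions rose and 0.139% fell. It was likewise 1 of 17 without EGF, where 1.09% rose and 0.274% fell. With EGF no region of the windows was called, and 0.234% of all tested regions rose and 0.426% fell. There 5 of the 15 tested Gata4 regions had an unadjusted p under 0.05, beside 10.8% of all tested regions. Region 7, among these 5, had no peak in either EGF library and was tested because of its knockdown libraries. Region 1, also among them, reached the window mostly through knockdown peaks. This count is therefore a description only. No region of the windows fell with knockdown in any of these 3 tests. The genome-wide counts over both EGF states depended on scaling and on single libraries: 60 regions rose and 39 fell, against 105 and 158 after quantile normalization and 2471 and 301 without control replicate 2. Without any 1 of the knockdown or EGF-treated libraries, limma called 0 regions genome-wide, with an unadjusted p under 0.05 in 3591 to 4330 of them.

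The call of region 5 was close to the threshold. For the mean over both EGF states it held when control replicate 2 was left out (adjusted p = 0.0250), and was lost when any of the other 7 libraries was left out (adjusted p of 0.0518 to 0.160), with the difference between 0.68 and 0.80. The call without EGF likewise held without control replicate 2 (adjusted p = 0.0357) and was lost without each of the other 7 libraries (adjusted p of 0.0952 to 0.333). With a pseudocount of 1000 bp, with regions of 1 library included or after quantile normalization, adjusted p for the mean over both EGF states was 0.0509 to 0.0516 in limma. Over 9 alternative settings with all libraries, this call passed in 4, and its limma adjusted p reached 0.387. The call without EGF passed in 3 of 9, and its limma adjusted p reached 0.545.

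**Figure D3:**
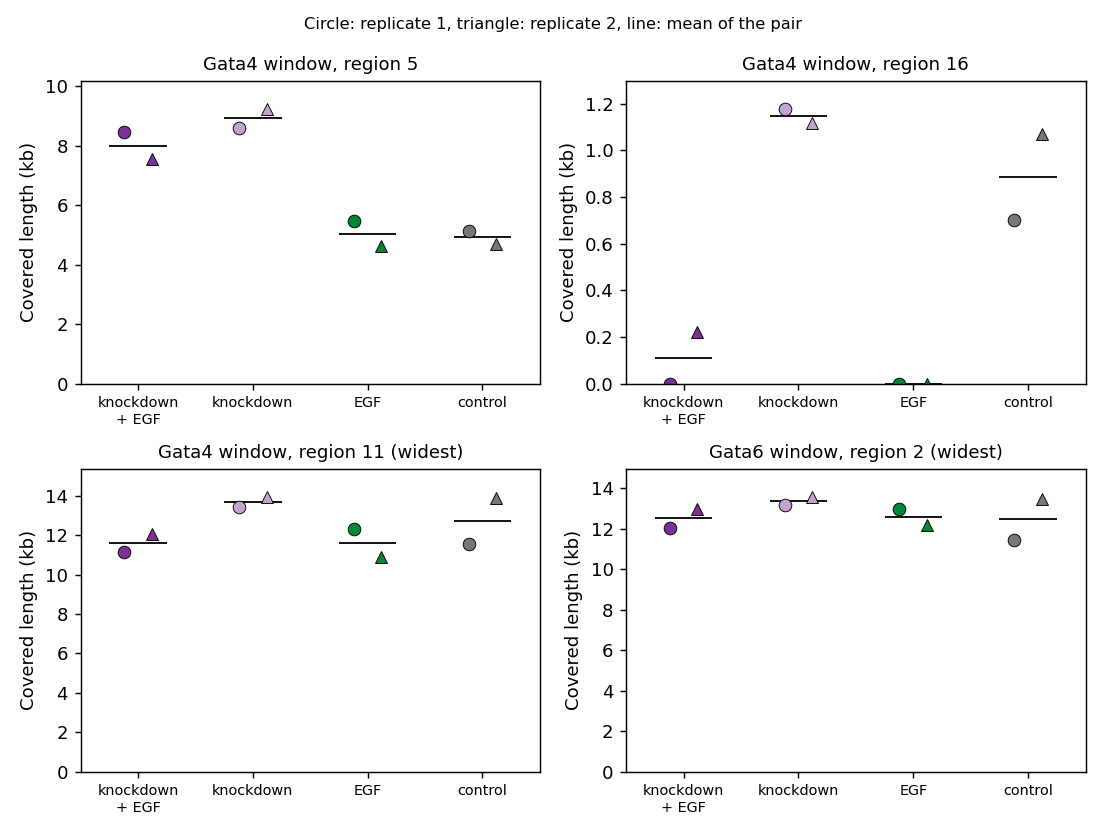
Covered length in kb of 4 regions by group, with a circle for replicate 1, a triangle for replicate 2 and a line at the mean of the pair. Region 5 separated by siRNA and region 16 by EGF, whereas the widest regions of the Gata4 and Gata6 windows overlapped between groups.

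The fold of region 5, given here without a test since the caller's background may differ between lists, was 5.04 and 5.29 in knockdown libraries with EGF and 5.23 and 5.19 in knockdown libraries, against 4.73 and 5.03 in EGF libraries and 4.24 and 4.61 in control libraries. Each knockdown library lay above each intact one in these values, and so it did in the folds of region 12 given above. Ranked within its own list, neither region separated by siRNA. The fold of region 5 lay above that of 52.2% and 61.4% of peaks in knockdown libraries with EGF and 57.6% in both knockdown libraries, against 53.3% and 55.6% in EGF libraries and 39.0% and 49.8% in control libraries. For region 12 the shares were 91.3% and 90.8% in knockdown libraries with EGF and 95.3% and 91.2% in knockdown libraries, against 92.8% and 87.8% in EGF libraries and 93.0% and 86.8% in control libraries. Among the 8 regions of both windows with a peak in every library, these 2 had deposited folds that were all higher in knockdown libraries, where the share was 8.70% among the 16607 such regions genome-wide. None had folds that were all lower, where the share was 0.891%. By covered length the 2 regions were 1 and 5, where the genome-wide share was 4.95%, and none lay wholly below the intact libraries, where it was 0.867%. Region 1 belongs to the window only through peaks that crossed its left edge. These came from both knockdown libraries, knockdown replicate 2 with EGF and a 414 bp peak of EGF replicate 2. It was thus included largely through the libraries where it is widest, and the count by covered length is a description only. Region 1 covered 5824 and 5384 bp in knockdown libraries with EGF and 7346 and 7475 bp in knockdown libraries, against 2807 and 4559 bp in EGF libraries and 4311 and 4541 bp in control libraries, a difference of 0.67 ± 0.14 (log2, SE) that did not pass the limma test (adjusted p = 0.0923).

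Between regions 5 and 11 stood narrow regions that some libraries lacked. Region 6, at 63836110 to 63837764, covered 718 and 670 bp in knockdown libraries with EGF and 870 and 1533 bp in knockdown libraries, against 0 and 485 bp in EGF libraries and 0 bp in both control libraries. Region 7, at 63840836 to 63841852, covered 330 and 1010 bp in knockdown libraries with EGF and 887 and 913 bp in knockdown libraries, against 0 bp in both EGF libraries and 0 and 640 bp in control libraries. Neither passed the limma test over both EGF states, with adjusted p = 0.0954 for region 6 and adjusted p = 0.177 for region 7. By presence, region 6 was the 1 of 21 regions with a peak in both knockdown libraries and neither control library, against 3.04% of all regions. Region 7 was the 1 of 21 with a peak in both knockdown libraries with EGF and neither EGF library, against 2.02% of all regions. No region of the windows was lost by this rule with knockdown in either EGF state, where 0.778% of all regions were lost without EGF and 2.34% with it. Regions 8 and 9 had mean knockdown differences of 1.35 and 1.69 on the log2 scale, with adjusted p = 0.260 and adjusted p = 0.360 in limma. Both had a peak in all 4 knockdown libraries, and among the 4 intact libraries region 8 had one in 3 and region 9 in 2.

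Region 11 differed by 0.05 ± 0.09 with knockdown (log2, SE; adjusted p = 0.790), and the Gata6 domain by 0.05 ± 0.08 (adjusted p = 0.795). Over the 15 tested Gata4 regions the median knockdown difference was 0.58 over both EGF states, with 13 positive and 2 negative, beside a median of 0.11 over all tested regions. Without EGF the medians were 0.72 for Gata4 regions and 0.18 for all regions, and with EGF 0.54 and 0. These medians leave out the 4 regions with a peak in 1 library. Regions 6, 7 and 13 were tested because of their peaks in knockdown libraries, having a peak in 1 intact library each, and region 13 is the median over both EGF states. The counts and medians are therefore a description only.

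**Figure D4:**
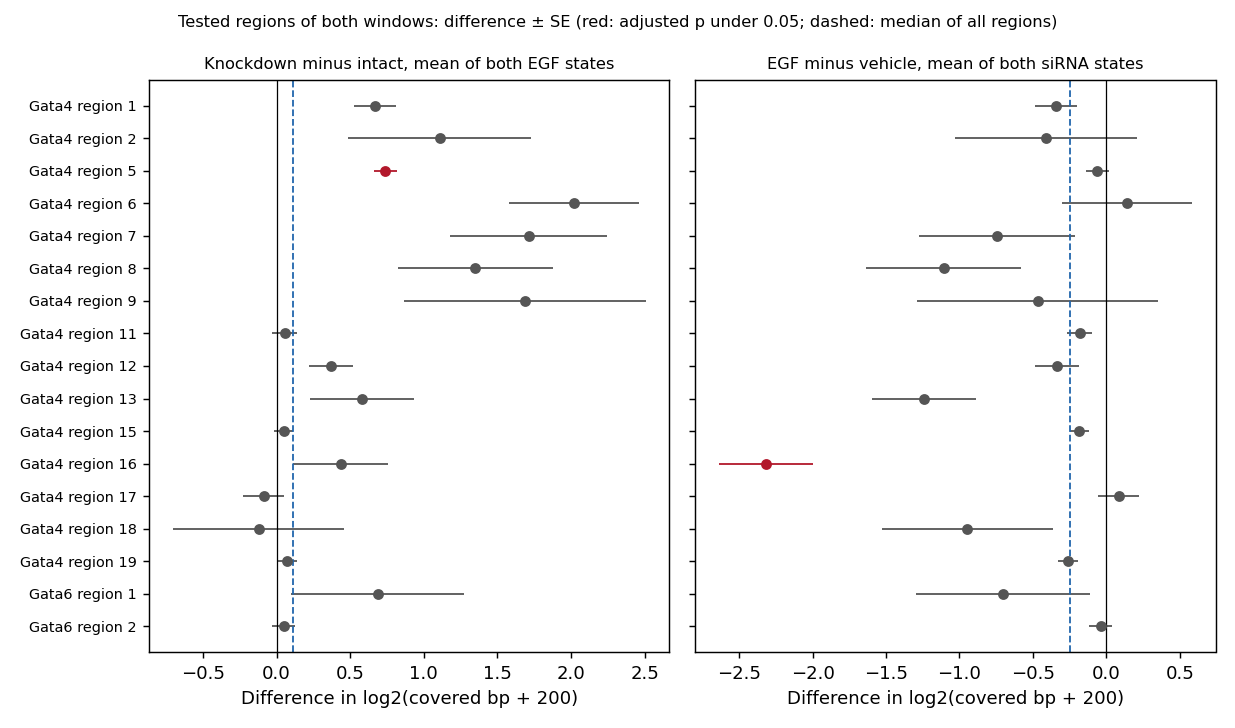
Log2 differences in covered length of the 17 tested regions, with the SE as bars, for knockdown minus intact on the left and EGF minus vehicle on the right. Regions in red passed an adjusted p of 0.05, the dashed line is the median over all tested regions, and only region 5 on the left and region 16 on the right passed.

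Summed over the window, the Gata4 knockdown difference did not exceed what the exact test requires. Peaks covered 41.6 ± 6.60 kb in the 4 knockdown libraries and 31.8 ± 4.64 kb in the 4 intact libraries (SD, n = 4 each), with a two-sided exact permutation p = 0.0857, where 0.0286 is the smallest that 4 against 4 allows. The ratio of these means was 1.31, and the ratio of the covered length of the whole libraries was 1.10. Scaled to the library, the Gata4 window held 1005 ± 32.2 bp per Mb of covered sequence in knockdown libraries and 847 ± 39.7 bp per Mb in intact libraries (SD, n = 4 each; exact permutation p = 0.0286), with no overlap between the 2 sets. How many tiles of the genome separate this way after scaling was not computed, so the window is not shown to stand out. The Gata6 window held 13.4 ± 0.871 kb in knockdown libraries and 12.7 ± 0.713 kb in intact libraries (exact permutation p = 0.286, n = 4 each). Scaled to the library, its difference had the other sign, with 327 ± 35.6 bp per Mb in knockdown libraries and 342 ± 40.9 bp per Mb in intact libraries (exact permutation p = 0.629, n = 4 each).

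**Figure D5:**
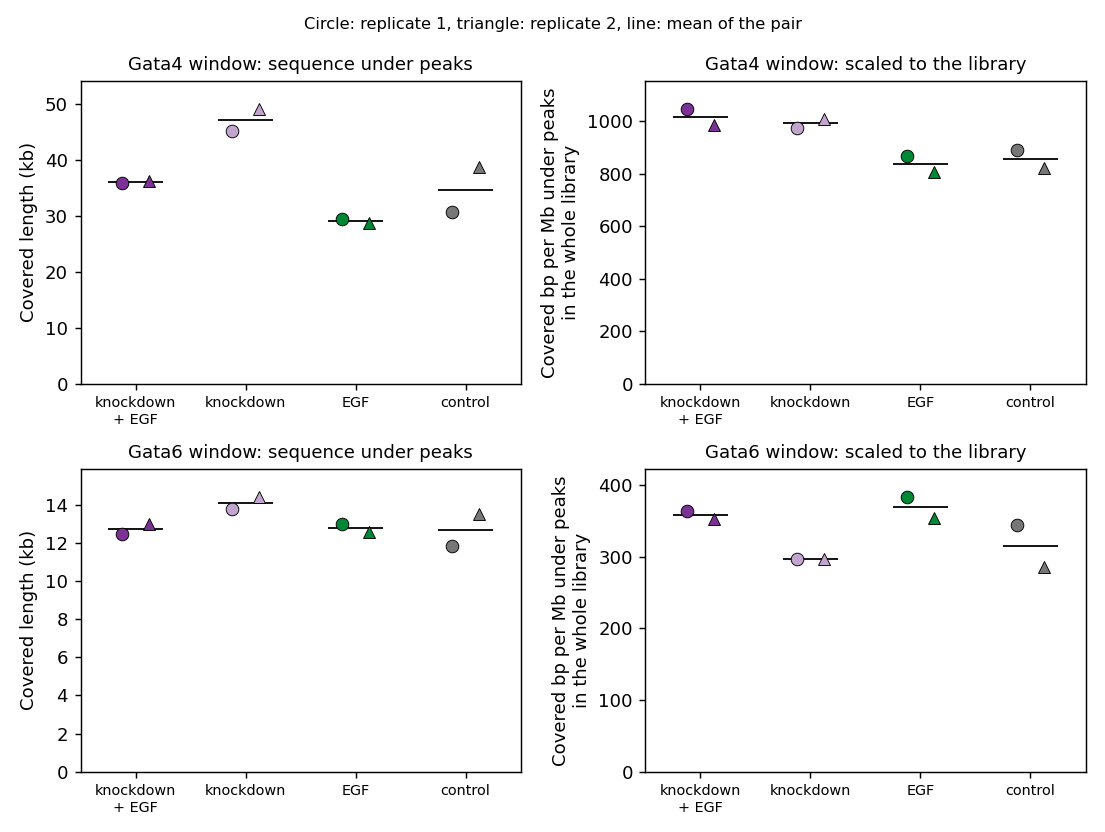
Sequence under peaks in the Gata4 window (top) and the Gata6 window (bottom) by group, as kb on the left and as bp per Mb of the library's own covered sequence on the right, with a circle for replicate 1, a triangle for replicate 2 and a line at the mean of the pair. After scaling, the 4 knockdown libraries lay above the 4 intact ones in the Gata4 window, and the 4 EGF-treated libraries lay above the 4 vehicle libraries in the Gata6 window.

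The second comparison asked how 8 h of EGF changed the same landscape. One narrow Gata4 region, region 16 at 63916243 to 63917474, had less or no sequence under peaks with EGF, with either siRNA. It covered 0 and 221 bp in knockdown libraries with EGF, against 1179 and 1116 bp in knockdown libraries. With non-targeting siRNA it covered 0 bp in both EGF libraries, against 701 and 1070 bp in control libraries. The 4 EGF-treated libraries all lay below the 4 vehicle libraries. Its deposited folds were 3.07 in knockdown replicate 2 with EGF, 3.48 and 3.69 in knockdown libraries, and 3.68 and 4.12 in control libraries. These folds lay above 1.28% to 38.2% of peaks in their own lists, so the difference rests on weak peaks.

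Region 16 entered the test through its vehicle libraries, as only 1 EGF-treated library had a peak there, and its calls carry that limit. It fell by 2.32 ± 0.32 with EGF over both siRNA states (log2, SE; limma adjusted p = 0.0115). With 0 bp in 3 of the 4 EGF-treated libraries, the size of this difference follows from the pseudocount: it was -3.78 with 50 bp and -0.93 with 1000 bp, and both passed (adjusted p = 0.0178 and 0.00903). The difference was -2.21 ± 0.45 in knockdown cells (adjusted p = 0.0450) and -2.42 ± 0.45 in intact cells (adjusted p = 0.0468). It was in each case the 1 tested region of the 17 that fell. Over all tested regions 11.2% fell with EGF over both siRNA states, 6.00% in knockdown cells and 2.90% in intact cells. The shares that rose were 1.79%, 0.622% and 1.05%, and no region of the windows was among them. These shares depend on scaling: over both siRNA states 503 regions rose and 3151 fell, and after quantile normalization 1592 rose and 1468 fell, as the median difference of all regions moved to 0.04, against -0.25 before. The call of region 16 over both siRNA states held when any 1 of the 8 libraries was left out (adjusted p of 0.0122 to 0.0471), and was lost when all lists were shortened to the same number of peaks (adjusted p = 0.0903). The call in intact cells was lost in all 8 cases (adjusted p of 0.0503 to 0.188), with the difference between -2.67 and -2.17. In knockdown cells the call held without control replicate 1 (adjusted p = 0.0355) or control replicate 2 (adjusted p = 0.0318) and was lost without any of the other 6 libraries (adjusted p of 0.0665 to 0.194).

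By presence, region 16 was the 1 of 21 regions with a peak in both control libraries and neither EGF library, against 4.26% of all regions. In knockdown cells the 1 such region was region 13, at 63881603 to 63882254, against 8.40% of all regions. Region 13 had no peak in either knockdown library with EGF, against 386 and 652 bp in knockdown libraries, and no peak in either EGF library, against 0 and 302 bp in control libraries. It did not pass the limma test (adjusted p = 0.0702 over both siRNA states and adjusted p = 0.0901 in knockdown cells). No region of the windows was gained by this rule with EGF, where 0.996% of all regions were gained in knockdown cells and 2.00% in intact cells.

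The wide right-hand regions 15 and 19 did not pass the test and differed by about as much as all regions did, or by less. Region 19 covered 6699 and 6018 bp in knockdown libraries with EGF, against 8090 and 7152 bp in knockdown libraries, and 5840 and 6169 bp in EGF libraries, against 7133 and 7442 bp in control libraries (mean difference -0.26 ± 0.07, log2, SE; limma adjusted p = 0.0536). Region 15 covered 3362 and 3169 bp in knockdown libraries with EGF, against 4051 and 3609 bp in knockdown libraries, and 3197 and 3257 bp in EGF libraries, against 3392 and 3841 bp in control libraries (mean difference -0.18 ± 0.07; adjusted p = 0.112). In both regions all 4 EGF-treated libraries lay below all 4 vehicle libraries, which made 2 of the 8 regions found in every library, while 15.8% of such regions genome-wide lay wholly below the vehicle libraries. None of the 8 lay wholly above, beside 1.94% genome-wide. The median EGF difference of the 15 tested Gata4 regions was -0.34 over both siRNA states, with 2 positive and 13 negative, beside -0.25 for all tested regions. Regions 13 and 18 had no peak in an EGF-treated library and region 16 had 1, so they were tested because of their vehicle libraries, and the count and medians are a description only. In knockdown cells the Gata4 median was -0.46 beside -0.32, and in intact cells -0.27 beside -0.14.

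Region 5, which widened with knockdown, differed by -0.06 ± 0.08 with EGF (log2, SE; limma adjusted p = 0.609). Region 11 differed by -0.18 ± 0.09 (adjusted p = 0.201), beside the median of -0.25 over all tested regions. The Gata6 domain differed by -0.04 ± 0.08 (adjusted p = 0.759), while its deposited fold was lower in each of the 4 EGF-treated libraries than in any of the 4 vehicle libraries. Ranked within its own list, that fold separated by siRNA instead. It lay above that of 83.9% and 82.8% of peaks in knockdown libraries with EGF and 83.0% and 84.6% in knockdown libraries, against 90.7% and 89.9% in EGF libraries and 95.5% and 96.8% in control libraries. Gata4 region 11 separated the same way. Its fold lay above 96.9% and 97.1% of peaks in knockdown libraries with EGF and 96.5% and 97.4% in knockdown libraries. The shares were 97.8% in both EGF libraries, and 97.8% and 98.9% in control libraries. How often regions genome-wide separate by siRNA in this ranking was not computed. Within knockdown cells the shares of the Gata6 domain overlapped between EGF and vehicle. Ranks from lists of different lengths cannot by themselves show whether acetylation changed. Counted from the highest fold, this domain ranked 3548 and 3999 in knockdown libraries with EGF and 4561 and 4247 in knockdown libraries. In EGF libraries it ranked 2074 and 2324, and in control libraries 1003 and 914. With all lists shortened to 22030 peaks these ranks stayed the same, since shortening dropped the peaks of lowest score. They therefore do not correct for list length. Gata4 region 1 was the other region in which the deposited folds were all lower with EGF, making 2 of 8, beside 17.5% of such regions genome-wide. In the other direction there were 0 of 8, beside 6.11%.

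The summed Gata4 window covered 32.6 ± 4.11 kb in the 4 EGF-treated libraries and 40.9 ± 8.11 kb in the 4 vehicle libraries (SD; exact permutation p = 0.114, n = 4 each), a ratio of 0.796, beside 0.796 for the covered length of the whole libraries. Scaled to the library, the values were 927 ± 110 and 925 ± 85.4 bp per Mb in EGF-treated and vehicle libraries (exact permutation p = 0.971, n = 4 each). Without control replicate 1 the unscaled difference was -11793 bp, against -8358.5 bp with it, and the exact permutation p was 0.0286, the smallest possible there. This was 1 of 8 such omissions, and the others gave exact permutation p of 0.114 to 0.229.

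The Gata6 window covered 12.7 ± 0.284 kb in EGF-treated libraries and 13.4 ± 1.11 kb in vehicle libraries (SD; exact permutation p = 0.314, n = 4 each), a ratio of 0.953. Without control replicate 1 the difference was -1148 bp, against -628.75 bp with it, and the exact permutation p was 0.0286, the smallest possible there. This was 1 of 8 such omissions, and the others gave exact permutation p of 0.343 to 0.629. Scaled to the library, the Gata6 window held 363 ± 14.4 bp per Mb in EGF-treated libraries and 306 ± 26.1 bp per Mb in vehicle libraries (exact permutation p = 0.0286, n = 4 each). How many tiles of the genome separate this way was not computed. The whole libraries covered 35.1 Mb on average with EGF and 44.1 Mb with vehicle. Control replicate 1, a vehicle library, covered 34.3 Mb and held 344 bp per Mb. The part that library length plays in the window totals was not tested further.

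Whether EGF acted differently in knockdown and intact cells was tested as the difference between the EGF effects. By limma no region of the windows passed, with smallest adjusted p = 0.762 for Gata4 and adjusted p = 0.835 for Gata6, and 0 of the 17 had an unadjusted p under 0.05. Genome-wide 0% of tested regions passed and 2525 had an unadjusted p under 0.05. That 0% depended on the setting. With only peaks scored above the median of all lists, 273 of 14573 tested regions passed with a positive difference and 539 with a negative one. The Gata6 regions passed no limma test of any of these contrasts, adjusted or unadjusted, and the narrow Gata6 region 1 differed by 0.69 ± 0.59 with knockdown (log2, SE; adjusted p = 0.587) and by -0.70 ± 0.59 with EGF (adjusted p = 0.428).

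The regions elsewhere whose covered length was most like the Gata4 total across the 8 libraries lay on chromosome 4, at 134976323 to 134991439 (Pearson r = 0.992), 41701713 to 41703669 (r = 0.984) and 138459448 to 138464438 (r = 0.980), among 16600 regions ranked. Those most like the Gata6 total lay on chromosome 7 at 35473069 to 35475025 (r = 0.987), chromosome 5 at 107866201 to 107867570 (r = 0.986) and chromosome 11 at 87859527 to 87862946 (r = 0.984), among 16606 ranked. These coefficients are a description over 8 points on the log2 scale, and the points share each library's length of covered sequence. The leading Gata4 match covered 9998 and 9872 bp in knockdown libraries with EGF, 12679 and 13887 bp in knockdown libraries, 6858 and 6938 bp in EGF libraries, and 7502 and 10499 bp in control libraries.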

How the data were processed

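H3K27ac ChIP-seq libraries of 266-6 cells, 2 in each of 4 groups, came as 1 list of peaks per library, so replicates were not pooled. The submitters' processing notes name build mm9 and the tools deepTools 3.0.2, MACS2 2.1.1.20160309.0, SAMtools and Bowtie2 2.3.4.2, with no role stated. In the sources used here, caller settings and any input library are not given. The deposited columns give each peak's position, a score, a fold (the ratio of signal to the background of the caller), and a −log10 p and −log10 q, which the authors' caller wrote. The lowest deposited −log10 q was 1.00. Fold was used to rank peaks within a list, and deposited folds were also set side by side between lists, without a test. Deeper libraries can give longer lists and wider peaks, and depth is unknown.

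Covered length per merged region was tested with limma 3.58.1 in R 4.3.3 (empirical Bayes with trend, 4 group means, log2(covered bp + 200)). Window totals were tested by two-sided exact permutation of all 70 assignments of 4 against 4. With 2 against 2 no p under 0.333 is possible, so those window totals are values only. Other steps used matplotlib 3.10.9, SciPy 1.17.1, NumPy 2.4.6, pandas 2.3.3 and Python 3.11.15. The scripts were tested on simulated data. The windows, tests and lists were chosen with earlier results of these data known. Values per library were to be given for the widest region and that of highest mean fold in each window, every region past the limma threshold, and every region with a peak in both libraries of one group and neither of another; regions 1, 8, 9, 12, 15 and 19 of Gata4 and region 1 of Gata6 were added after their values were seen, as were the 4 regions in 1 library. Alternatives were other pseudocounts, filters and scores, equal list lengths, quantile normalization, other window rules, leaving out each library and a replicate block. Gene lists for acinar, ductal and other cells and for other pancreatic factors were not analysed here.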

Additional observations from a re-analysis of the deposited data

Results flagged for a closer look

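In 36 sets of 4 libraries that were examined, 4 narrow Gata4 regions each had a peak in a single library of the set while the other 3 had 0 bp. The usual rate of about 1 flag in 20 sets is for continuous values and does not apply here, since a lone peak beside 3 values of 0 is always flagged. Region 6 covered 485 bp in EGF replicate 2 among the 4 intact libraries. Region 7 covered 640 bp in control replicate 2 among the same 4 libraries. Region 13 covered 302 bp in control replicate 2, again among the intact libraries. Region 16 covered 221 bp in knockdown replicate 2 with EGF among the 4 EGF-treated libraries.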

How the results depend on the processing

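Regions 5 and 16 kept the sign of their difference wherever they could be tested, but their calls did not all hold. Region 16 over both siRNA states was lost with lists shortened to the 22030 peaks of the shortest one (adjusted p = 0.0903) and could not be tested with scores above the pooled median of 40, where none of its peaks remained. The number of regions called over both siRNA states for EGF was 1 as reported, 2 with a pseudocount of 1000 bp or a peak in at least 4 libraries, and 0 with scores above the median or equal lists. For EGF in intact cells it was 0, not 1, with a pseudocount of 50 bp, a peak in at least 1 library, scores above the median, equal lists and the replicate block. For EGF in knockdown cells it was 0, not 1, under the same 5 settings and quantile normalization. For knockdown over both EGF states it was 0, not 1, with a pseudocount of 1000 bp, a peak in at least 1 library, quantile normalization and the block. With scores above the median it was 1, but that region was region 1. For knockdown without EGF it was 0, not 1, under those 4 settings, with a peak in at least 4 libraries and with scores above the median. Leaving out 1 library gave 1 to 2 regions for EGF over both siRNA states, 0 to 0 in intact cells and 0 to 2 in knockdown cells, and 0 to 2 for knockdown both over EGF states and without EGF. Knockdown with EGF and the difference between EGF effects gave 0 regions in every limma setting run. The second regions were 1, 7, 13 and 19.

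Window totals changed with scaling to the library: EGF minus vehicle was 2.75 bp per Mb for Gata4 and 57.4 bp per Mb for Gata6, and knockdown minus intact was 159 bp per Mb for Gata4 and -14.8 bp per Mb for Gata6. With equal lists the Gata4 knockdown difference was 8314.5 bp (exact permutation p = 0.0286). Leaving out 1 library gave -11793 to -5610 bp (Gata4) and -1148 to -281 bp (Gata6) for EGF, and 7301 to 12095 bp (Gata4) and 335 to 994 bp (Gata6) for knockdown. The cause of these changes was not tested.

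Replicate numbers were not stated to pair samples, and same-numbered deviations had correlations of -0.00929 to 0.0317 between groups. With the replicate number as a block, adjusted p was 0.0206 for region 16 over both siRNA states and 0.102 for region 5 over both EGF states. Block permutation gave exact p = 0.167 and 0.111 for Gata4 (EGF, knockdown) and 0.333 and 0.278 for Gata6, where 0.0556 is the smallest possible. Over all regions the block left 0 calls for EGF in intact cells, for knockdown over both EGF states and for knockdown without EGF, beside 1111, 99 and 385 without it.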
